A study of Mus musculus with 2 samples.

Results

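Brown adipocytes are fat cells that burn fatty acids to make heat. Their uncoupling protein lets protons flow back into the mitochondrial matrix without making ATP, and cold signals reach them through noradrenaline released by sympathetic nerves. In newborn mice the interscapular depot of brown fat lies beneath the skin of the back. The labels do not say whether any of it was taken with the skin measured here.

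The members described are 9 genes known from brown adipocytes: Ucp1, Cidea, Cox8b, Cox7a1, Ppargc1a, Elovl3, Dio2, Prdm16 and Ppara. They were found on both arrays by the gene name that the scanner files give each non-control probe, which returned 12 probes of 39417, and 9 of the 22719 genes measured on both arrays. Ppara had 3 probes, Ppargc1a had 2, and each of the other 7 had 1. Every one of the 12 probes was well above background on both arrays, so no member was lost to the filter on dim probes.

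Dorsal skin was taken from newborn mice at P0 (postnatal day 0) on a C57BL/6J background. The groups were wild type (Sdr9c7+/+) and Sdr9c7-/- knockout mice, and the series' title places this enzyme in acylceramide processing for the skin barrier. The study asked which transcripts differ in skin without the enzyme. Each genotype was 1 array of RNA pooled from 5 animals, so no value has a replicate check, no test was run and array and genotype cannot be told apart. The tissue is skin in the sample labels and epidermis in the design text.

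The share of probes well above background was 74.9% in wild type skin and 76.8% in knockout skin, with 0 saturated spots. The targeted gene, Sdr9c7, had relative signals of 0.324 on the wild type array and 0.0479 on the knockout array, 6.78-fold lower. Here and below a relative signal is the intensity divided by the array's own 75th percentile, and a log2 difference is knockout minus wild type on that scale. The median log2 difference over the 22719 genes was −0.04. Spots of 1 probe had a median SD of 0.06 in this difference, and the pooled SD between probes of 1 gene was 0.23. The first SD came from 320 probes with at least 8 usable spots, while member probes had 1 spot each. Both SDs compare spots or probes within the same pair of arrays and leave out animals, litters and dissections.

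The labelled cell type was checked against its markers. Ucp1, the uncoupling protein that defines the brown adipocyte, was dim: its signal was 6.20 times the lowest taken as well above background on the wild type array and 10.7 times on the knockout array. Of 22 other regulators and early identity genes of brown and beige fat, 21 were measured. Among them were Zic1, with relative signals of 0.780 in wild type skin and 0.507 in knockout skin, and Ebf2, with 0.268 and 0.194. In wild type skin 74.9% of all probes were well above background, so detection alone says little about the cell type. Several of the members are made in other cells too. Cox8b, Cox7a1 and Ppargc1a are also known from skeletal and heart muscle, and Cidea and Elovl3 from sebaceous glands, so the signals were not assigned to a cell type.

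Of the 9 members, 3 were at least 2-fold lower in the knockout, namely Cox8b, Ppargc1a and Cox7a1, and 0 were at least 2-fold higher. Over all measured genes the shares were 1.36% lower and 0.528% higher. The member median was −0.05, next to −0.04 for all genes, because the other 6 members lay between −0.18 and 0.72. At a 1.5-fold threshold the count was again 3 lower, with 1 higher, Prdm16, against 6.05% and 2.36% of measured genes.

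**Figure D1:**
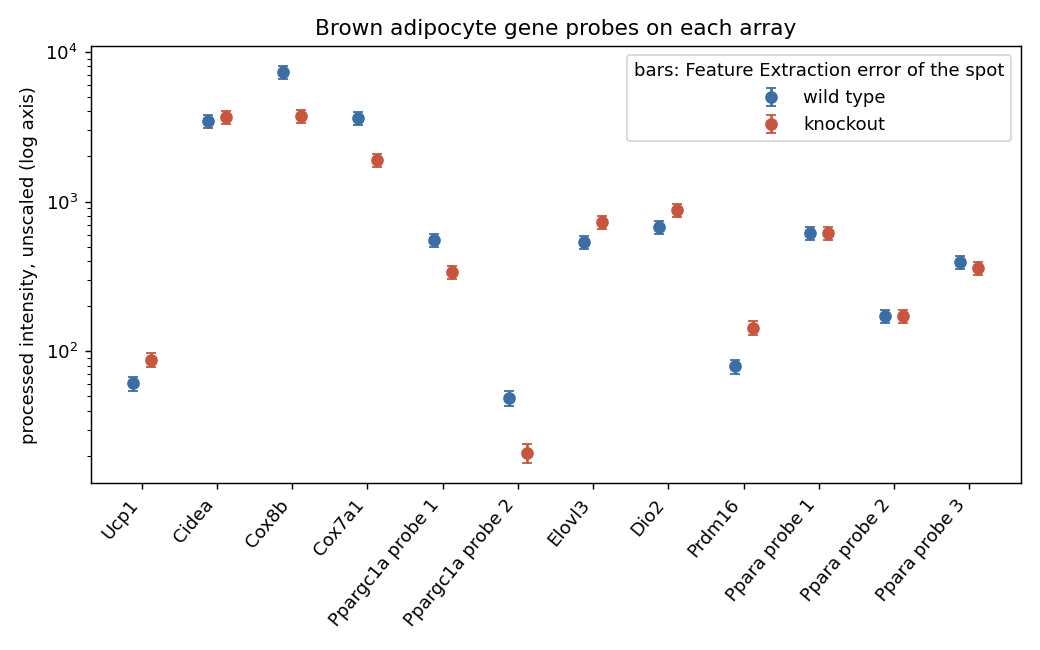
Processed intensity of each member probe before scaling (vertical log axis) on the wild type array (blue) and the knockout array (red); bars are the error that the scanner software assigns to each spot. Cox8b, Cox7a1 and both Ppargc1a probes sit lower in the knockout, at 7324 and 3732 for Cox8b, while Cidea, Dio2, Elovl3, Ucp1 and Prdm16 sit level or higher. Ppara sits level except for a probe at 393 in wild type and 357 in knockout skin. The knockout array was the brighter one before scaling, with a 75th percentile of 1923 against 1747.

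The lower members begin with the mitochondrial respiratory chain. Cox8b and Cox7a1 encode small nuclear subunits of cytochrome c oxidase, the last complex of that chain, in forms made chiefly by muscle and brown fat. The probes are DNA oligonucleotides of 60 bases. Those of Cox7a1 and Ucp1 are given whole and the others by their first 30 bases, 5′ to 3′, because the contrast between members rests on these spots:
Cox8b: ctataaaaagagctccgcagcatgaagttg
Cox7a1: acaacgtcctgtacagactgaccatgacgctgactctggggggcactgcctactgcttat
Ppargc1a, brighter probe: ccccttcaaatggcagcatttccatgaaga
Ppargc1a, dimmer probe: aggccaatgcagctaattttgacagctgca
Ucp1: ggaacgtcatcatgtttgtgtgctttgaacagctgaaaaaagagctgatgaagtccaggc

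The Cox8b probe (chr7:148084852-148084911, mm9, minus strand) had an intensity of 7324 ± 732 on the wild type array and 3732 ± 373 on the knockout array, where ± is the scanner software's own error for the spot. After scaling, the knockout signal was lower by 2.16-fold (log2 difference −1.11). The knockout array was the lower one, and the intervals given by the errors did not overlap. To show the array's spread at this brightness, each member probe was set beside the 1000 probes nearest to it in mean signal. For Cox8b the middle 95% of those lay between −0.61 and 0.46, and 5 of the 1000 were as low or lower.

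Cox7a1, whose probe has no position in the scanner files, read 3615 ± 362 in wild type skin and 1895 ± 189 in knockout skin. The log2 difference was −1.07 (2.10-fold lower), and 4 of its 1000 neighbours in signal were as low or lower. Both oxidase genes therefore lay outside the middle 95% of probes of their own brightness and close to each other in size. Both passed the 2-fold threshold by less than the SD between probes of a gene.

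The widely expressed forms of the same subunits did not share this shift. Cox8a, the partner of Cox8b, had relative signals of 37.0 in wild type skin and 35.3 in knockout skin (log2 difference −0.07), and Cox7a2, the partner of Cox7a1, had 15.0 and 14.3 (−0.06). The restricted form was thus lower than its partner by 2.06-fold for Cox8b over Cox8a and 2.01-fold for Cox7a1 over Cox7a2, as a ratio of changes that any scaling of an array by 1 constant leaves as it is. Cox6a2, the muscle form of another subunit, behaved like Cox8b and Cox7a1. It had 16.6 and 7.62 (log2 difference −1.12), while its partner Cox6a1 had 90.7 and 83.6 (−0.12). The restricted forms Cox4i2 and Cox6b2 differed from this, at −0.01 and −0.00.

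Across 11 widely expressed nuclear subunits the log2 differences ran from −0.19 for Cox5a to 0.05 for Cox7b, with Cox6c at 0.03, a median of −0.07 and 9 below 0. Of the 14 oxidase genes besides the members, 1 (Cox6a2) was at least 2-fold lower and 0 were higher. Over all measured genes 56.9% were below 0, 1.36% were at least 2-fold lower and 0.528% were higher.

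**Figure D2:**
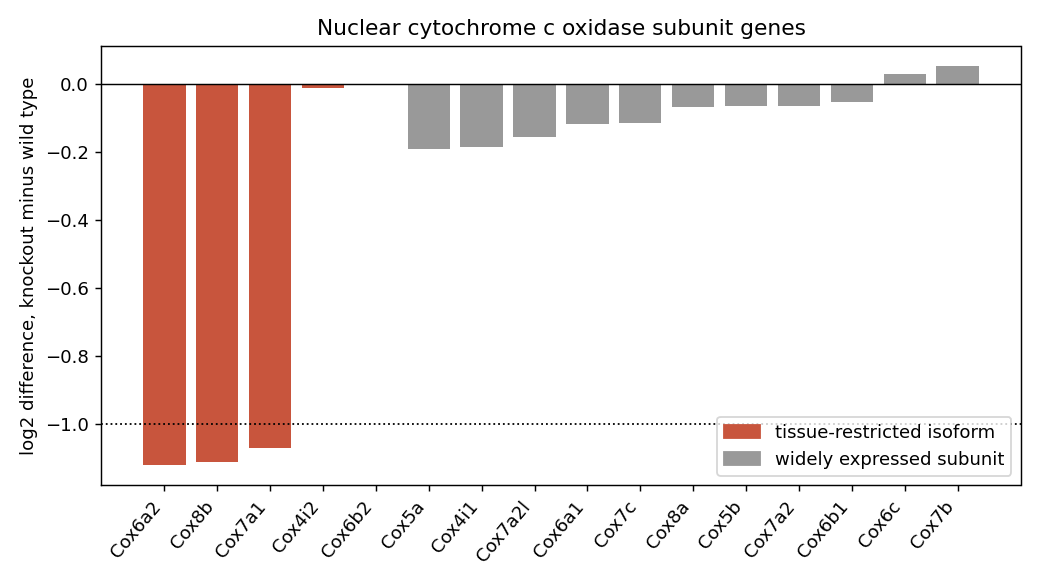
Log2 difference (knockout minus wild type, vertical axis) for 16 nuclear genes of cytochrome c oxidase; red bars are tissue-restricted forms, grey bars widely expressed subunits, and the dotted line marks 2-fold lower. Cox6a2, Cox8b and Cox7a1 lie between −1.12 and −1.07, and the widely expressed subunits between −0.19 and 0.05.

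Ppargc1a encodes a coactivator that drives the making of mitochondria in brown fat and muscle. Its brighter probe (chr5:51848928-51848987, mm9, minus strand) read 553 ± 55.3 in wild type skin and 338 ± 33.8 in knockout skin, a log2 difference of −0.85. The dimmer probe (chr5:51846926-51846985) read 48.8 ± 5.54 and 20.9 ± 3.07, a difference of −1.36. It was the dimmest member probe. Its signal was 4.96 times the lowest taken as well above background on the wild type array and 2.54 times on the knockout array. Both probes were lower in the knockout, by 1.80-fold and 2.57-fold, and their mean was −1.11 with an SD of 0.36 between them.

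The brighter Ppargc1a probe lay at the edge of the middle 95% of probes of like signal, with 26 of 1000 as low or lower, and the dimmer lay outside it, with 12. Taken by the brighter probe alone the gene was at −0.85 and did not reach 2-fold. After normexp background correction, which starts from raw intensities and compresses dim probes, it was at −0.65.

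**Figure D3:**
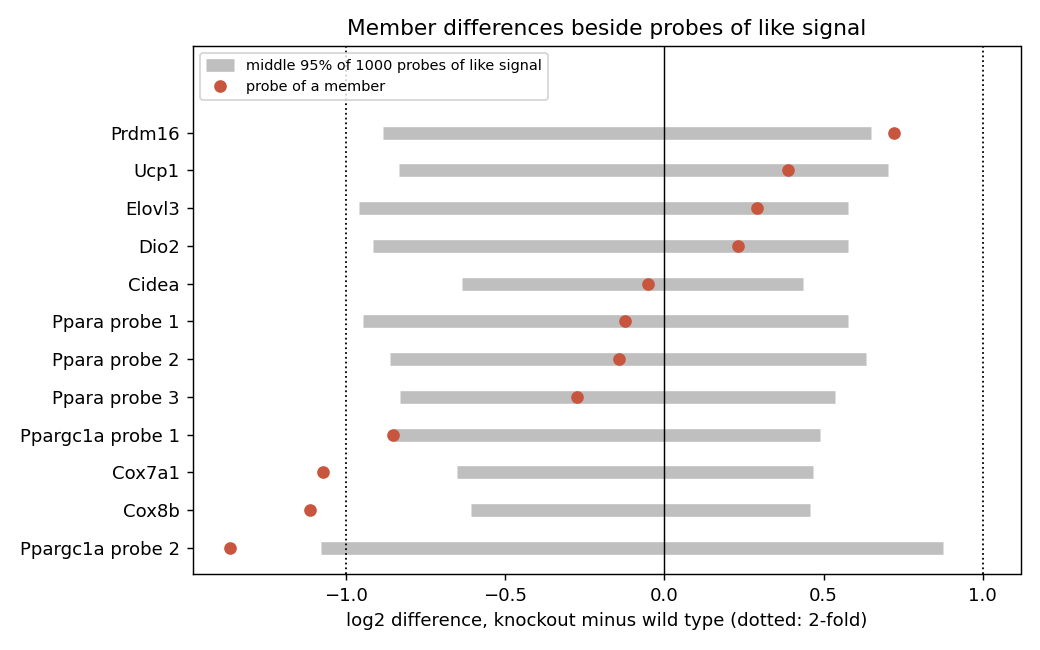
Log2 difference (knockout minus wild type, horizontal axis) of each member probe as a red point, beside grey bars for the middle 95% of the 1000 probes nearest in mean signal. Cox8b, Cox7a1 and the dimmer Ppargc1a probe lie below their bars and Prdm16 above its bar, and the other 8 probes lie inside.

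Ucp1, Prdm16, Dio2 and Elovl3 read higher in the knockout array, each by less than 2-fold. Ucp1 (chr8:85821788-85821847, mm9, plus strand) read 61.0 ± 6.72 in wild type skin and 87.9 ± 9.12 in knockout skin, a log2 difference of 0.39 (1.31-fold higher). The knockout was the brighter array, and 93 of 1000 probes of like signal were as high or higher, so the difference lay within the spread of such dim probes.

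Prdm16, a transcription factor that turns precursors towards brown fat rather than muscle, read 79.1 ± 8.39 in wild type skin and 144 ± 14.6 in knockout skin. Its log2 difference of 0.72 (1.65-fold higher) was the highest of the members and lay above the middle 95% of probes of like signal, with 18 of 1000 as high or higher. The probe (chr4:153690254-153690313, mm9) is dim, and normexp correction gave 0.36. Among 12 other measured Prdm genes 0 were at least 2-fold apart, from Mecom at −0.37 and Prdm6 at −0.32 to Prdm12 at 0.57 and Prdm9 at 0.79, with a median of 0.15.

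Dio2, the deiodinase that makes active thyroid hormone within brown adipocytes, read 677 ± 67.7 in wild type skin and 874 ± 87.4 in knockout skin (log2 difference 0.23, chr12:91963235-91963294, mm9). Elovl3, an elongase of very long chain fatty acids that brown fat switches on in the cold and that sebaceous glands also make, read 538 ± 53.9 and 725 ± 72.6 (0.29, chr19:46209762-46209821, mm9). Both stood slightly higher in the knockout and inside the middle 95% of probes of like signal.

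Cidea coats lipid droplets and helps them merge. It read 3435 ± 344 in wild type skin and 3653 ± 365 in knockout skin, and after scaling the arrays were level (log2 difference −0.05). Its relative Cidec, the form of white fat cells, went from a relative signal of 1.24 to 0.648 (−0.94), so these droplet proteins were unequal in their change.

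Ppara, the nuclear receptor that turns on fatty acid oxidation, was also nearly level. Its 3 probes gave −0.12, −0.14 and −0.27, with a mean of −0.18 and an SD of 0.08. Intensities were 612 and 619 at the brightest probe, 393 and 357 at the next, and 171 on both arrays at the dimmest. The probes lay on chromosome 15 between 85632110 and 85637252 (mm9), and no probe of a member was assigned to an exon or UTR since no annotation on mm9 was at hand.

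Promoter sequence was looked at for the oxidase pair, whose signals were lower by nearly the same amount. A RefSeq promoter table (GRCm38.p6) held 7 of the 9 members, without Cidea and Elovl3. The 250 bases before each start are given 5′ to 3′ on the gene's strand, with matches in capitals to CAGCTG, an E-box that myogenic factors are known to bind, and to AGGTCA, a half-site of nuclear receptors, on either strand:
Cox8b (chr7:140900447-140900696, GRCm38.p6, minus strand): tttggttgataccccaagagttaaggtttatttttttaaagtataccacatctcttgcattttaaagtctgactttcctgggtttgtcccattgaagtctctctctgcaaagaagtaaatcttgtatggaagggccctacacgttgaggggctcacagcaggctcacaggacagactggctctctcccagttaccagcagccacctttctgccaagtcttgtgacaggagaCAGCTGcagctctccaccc
Cox7a1 (chr7:30183921-30184170, GRCm38.p6, plus strand): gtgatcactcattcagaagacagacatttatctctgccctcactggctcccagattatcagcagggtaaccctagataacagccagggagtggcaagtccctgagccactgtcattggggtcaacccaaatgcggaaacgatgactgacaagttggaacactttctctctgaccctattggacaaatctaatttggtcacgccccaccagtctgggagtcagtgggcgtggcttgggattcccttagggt

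The Cox8b window held 1 CAGCTG, beginning 19 bases before the start, and 0 AGGTCA, and the Cox7a1 window held 0 of either. CAGCTG occurred in 13.0% and AGGTCA in 14.0% of 32851 windows of this length. The Ucp1 window held 1 AGGTCA, beginning 14 bases before the start. The windows of Ppargc1a, Prdm16 and Ppara, like that of Cox7a1, held 0 of the 3 motifs searched, so 4 of the 7 windows had none. The Dio2 window held 1 TGACGTCA, the sequence of a cAMP response element, 95 bases before the start, which occurred in 1.55% of windows. These motifs do not overlap each other. They were chosen after the windows were read, and a match shows letters, not binding.

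Genes upstream of heat production were compared as a list of 22 regulators and early identity genes of brown and beige fat. For this list and those below, the shares over all measured genes were 1.36% at least 2-fold lower, 0.528% higher and 56.9% below 0. Of the 21 regulators measured, 1 was at least 2-fold lower and 0 were higher, with a median of −0.09 and 14 below 0. The lower one was Irf4, a transcription factor that partners Ppargc1a in brown fat and also serves lymphocytes and melanocytes; its single probe went from a relative signal of 0.833 to 0.0593 (log2 difference −3.81). Lhx8, a homeobox gene of the brown lineage, followed at −0.94, and the highest were Ppargc1b at 0.33 and Ehmt1, a histone methyltransferase that works with Prdm16, at 0.38. Zic1 stood at −0.62 and Ebf2 at −0.47, each less than 2-fold lower, and both were named after their values were seen. Of the 21 measured, 7 were above 0.

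Of 25 measured genes of adrenergic input and heat production besides Ucp1, 1 was at least 2-fold lower and 0 were higher (median −0.16, 17 below 0). Over all measured genes 1.36% were at least 2-fold lower and 56.9% were below 0. Ckmt2, the mitochondrial creatine kinase of muscle, went from 4.10 to 1.55 (2.64-fold lower), and Gamt, which makes creatine, was at −0.73. Adrb3, the beta-adrenergic receptor of fat cells, was at −0.51, and Adrb1, which brown fat precursors use, was the highest at 0.31, followed by Thrb, a thyroid hormone receptor, at 0.27. Enzymes of noradrenaline synthesis, which mark sympathetic nerve, were lower: Th went from 0.238 to 0.157 (−0.60) and Dbh, which was dim, from 0.0276 to 0.0135 (−1.03).

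Of 21 measured genes of fatty acid oxidation, 0 were 2-fold apart, with a median of −0.14 and 17 below 0, where 56.9% of all measured genes were below 0. The lowest were Cpt1b, the muscle and brown fat form of the enzyme that admits fatty acids to mitochondria, from 0.308 to 0.166 (−0.89), and Fabp3, the fatty acid carrier of muscle and heart, from 1.44 to 0.797 (−0.85). The liver form Cpt1a was at −0.31, and Decr1 and Cpt2 were highest at 0.24 and 0.34.

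Of 19 measured genes known as Ppara targets, 2 were at least 2-fold lower and 0 were higher, with a median of −0.31 and 17 below 0. These were Pdk4, the kinase that holds back glucose oxidation (0.506 to 0.214, −1.24), and Plin5, a droplet protein of oxidative tissues (0.208 to 0.0966, −1.11). Creb3l3, a transcription factor of fasting metabolism, was the highest at 0.16. Some genes, such as Cpt1a, Cpt1b and Plin5, stand in more than 1 list, so the list counts partly repeat the same genes. The receptor itself differed by −0.18. That is less than the pooled SD of 0.23 between probes of a gene, which describes single probes. The receptor's value is a mean of 3 probes, all below 0, with an SD of 0.08.

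Among the elongases 0 of 6 measured relatives of Elovl3 were 2-fold apart (median −0.00), from Elovl5 at −0.38 and Elovl7 at −0.18 to Elovl2 at 0.19 and Elovl6, which lengthens palmitate, at 0.68. Thyroid hormone genes had a median of −0.20 over 10 measured, with 0 at 2-fold. Thrsp, a lipogenic target of the hormone, was at −0.88 and Klf9, another target, at −0.62, while Thrb was at 0.27 and Dio3, which inactivates the hormone, at 0.39 with very dim signals of 0.00843 and 0.0110. Of 11 measured genes of the Cide family and the lipid droplet, 3 were at least 2-fold lower and 0 were higher (median −0.30): Plin5, Fitm1 at −1.05 and Plin4 at −1.04. The count was 2 with median scaling, which left Plin4 short of 2-fold, and 1 with normexp background correction. Hilpda at −0.04 and Plin3 at 0.06 were the highest.

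Among the marker lists, those of skeletal muscle and of white and general adipocytes had the lowest medians. All 27 skeletal muscle markers were measured and none was absent on either array; 11 were at least 2-fold lower, 0 were higher, 25 were below 0 and the median was −0.90. Their summed relative signal was 385 in wild type skin and 227 in knockout skin, a ratio of 0.590. Cox6a2, named above among the oxidase genes, was 1 of the 11. Pvalb, a calcium buffer of fast fibres, was at −2.26, Actn3, of fast fibre Z-discs, at −1.52 and Ckm, muscle creatine kinase, at −1.23, whereas the oxidative fibre myosins Myh2 and Myh7 were at 0.18 and 0.56.

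The 16 markers of white and general adipocytes were also all measured, with 4 at least 2-fold lower, 0 higher, 15 below 0 and a median of −0.84. Plin4 was 1 of the 4, and with median scaling the count was 3. Their summed relative signal was 134 in wild type skin and 85.5 in knockout skin, a ratio of 0.636. Pck1, of glyceroneogenesis, was at −2.30 and the adipokine Cfd at −1.76, against −0.08 for Cebpa and 0.43 for Nnat. The part of muscle and white fat in the values of Cox8b, Cox7a1 and Ppargc1a was not tested, and in such bulk RNA fewer cells of a type and less RNA per cell cannot be told apart.

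Heart markers had 0 of 8 measured genes 2-fold apart (median −0.23), with Myl4 at −0.64 and Tnnt2 at −0.57, genes that growing skeletal muscle also uses, and Myl7 at 0.17 and Nppb at 0.30. Sebaceous gland markers, a list that holds Cidea and Elovl3, had 0 of 11 2-fold apart, with a median of −0.12, from Mc5r at −0.50 and Fads2 at −0.29 to Elovl3 and Dgat2l6, both at 0.29. Of the remaining marker lists, hair follicle had a median of −0.39, with Krt31 at −0.87 and Lef1 at 0.20, and endothelium and blood −0.15. Keratinocyte, fibroblast and immune markers were nearly level, with medians of 0.03, −0.04 and 0.10. The nerve list, which holds Th and Dbh, had a median of −0.19 over 7; Dbh, at −1.03, was not 2-fold lower under median, quantile or loess scaling or with normexp background correction.

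**Figure D4:**
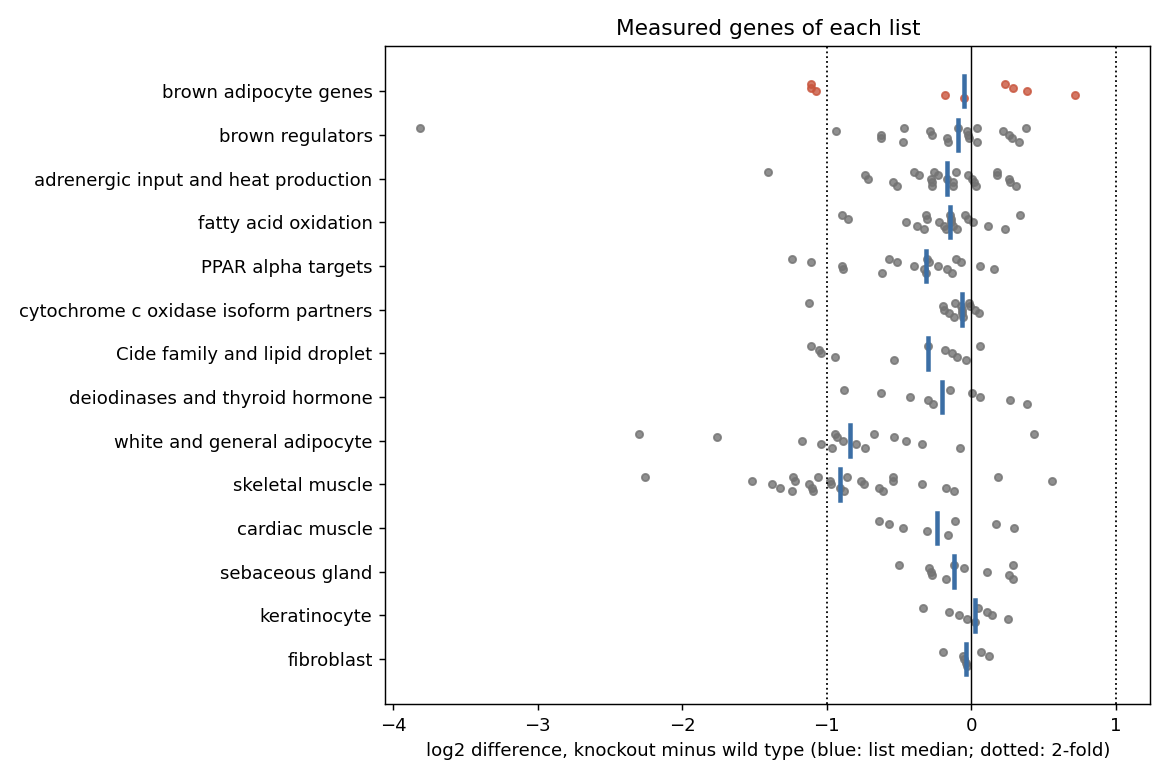
Log2 difference (knockout minus wild type, horizontal axis) of every measured gene in 14 lists, with list medians as blue bars and dotted lines at 2-fold. The members split into 3 genes near −1.1 and 6 between −0.18 and 0.72, while the skeletal muscle and white adipocyte lists have medians of −0.90 and −0.84.

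The position of the spots was checked because the wild type array lost signal in rows 496 to 515, columns 8 to 15, where 25 of 85 detected spots passed 2-fold towards the knockout. No member probe lay in this block. The nearest was the dimmer Ppargc1a probe, 4 rows and 2 columns away, and the 98 detected spots within 8 rows and 4 columns of it had a median log2 difference of −0.03. Around the 12 member spots the medians of such neighbours ran from −0.10 to 0.07. In the rows around each spot, spots of like signal scattered by 0.906 to 1.12 times as much as over the whole array (robust SD).

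**Figure D5:**
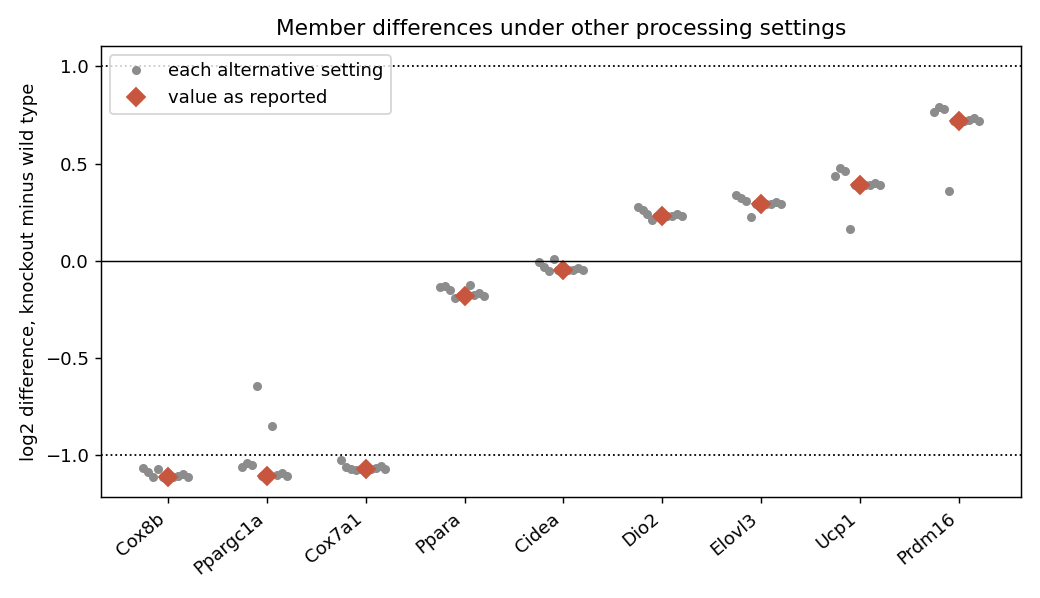
Log2 difference (knockout minus wild type, vertical axis) of each member as reported (red diamond) and under 10 other processing settings (grey points), with dotted lines at 2-fold. Cox8b and Cox7a1 stay below −1 in each of the 10, Ppargc1a in 8, and Prdm16 and Ucp1 stay above 0. For members with 1 probe only quantile, loess and normexp rework the value. The other settings return it or shift every such member by the same amount.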

How the data were processed

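Each of 2 one-colour Agilent arrays (Cy3) gave, per the file headers, the authors' processed intensity of each of 44397 spots after Agilent Feature Extraction 11.5.1.1, background-subtracted and detrended, with its error, raw mean and local background. The deposited series matrix holds a linear ratio, which was this intensity divided by 1906 (wild type) or 2080 (knockout); its medians were 0.0855 and 0.0840, genes were not centred and the genotypes not set against each other. How the authors chose these divisors was not stated in the sources.

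Control spots and 192 outlier-marked spots were left out, spots of a probe averaged on the log2 scale, and each array scaled by its 75th percentile (1747 and 1923). A gene was the mean of its unsaturated probes that passed the background flag on each array. Of all probes, 28324 were named by RefSeq accession, 2209 by symbol, 174 by synonym and 8722 by the file. Alternatives used limma 3.58.1 (normexp with offset 50, loess, quantile); calculations ran in Python 3.11.15 and were tested on simulated data. The number of arrays limits the precision.

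The members and lists were chosen with earlier results of these data known. From each list up to 4 genes were named, the 2 highest and 2 lowest, with Cox8a and Cox7a2; 1 gene that the rule names is not reported here. Zic1, Ebf2, Adrb3, Cidec, Cpt1a, Ckm, Cox6a1, Cox4i2 and Cox6b2 were named outside this rule after their values were seen.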

Additional observations from a re-analysis of the deposited data

How the results depend on the processing

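Under 10 other settings (median, quantile and loess scaling, normexp correction, no and stricter filters on dim probes, brightest probe, the damaged block left out, the series matrix values, and outlier-marked spots kept, the last added after seeing the data) Cox8b ran from −1.11 to −1.07 and Cox7a1 from −1.08 to −1.03. For members with 1 probe, the filter and brightest-probe settings returned the reported value. Median scaling, the left-out block, the series matrix and the kept outlier spots moved every such member by the same amount. Only quantile, loess and normexp reworked these values, so the 10 settings are not 10 separate checks. Ppargc1a passed 2-fold in 8, the exceptions being normexp (−0.65) and the brightest probe (−0.85). Prdm16 ran from 0.36 (normexp) to 0.79, Ucp1 from 0.16 to 0.48, Elovl3 from 0.23 to 0.34, Dio2 from 0.21 to 0.28 and Ppara from −0.19 to −0.12. Cidea ran from −0.05 to 0.01 and changed sign under normexp. The count of members at least 2-fold higher was 0, and 1 at a 1.5-fold threshold. Without Cox8b, Cox7a1 and Ppargc1a, a choice made after seeing the data, the member median was 0.26. Over all measured genes, 308 were at least 2-fold lower and 120 higher, against 103 and 33 with normexp, and 978 and 814 with no filter on dim probes. With normexp 1 Ppara target and 1 droplet gene were at least 2-fold lower, in place of 2 and 3. With median scaling the droplet count was 2 and the white adipocyte count 3, in place of 3 and 4. The 1 nerve gene was lost under median, quantile and loess scaling and normexp. With no filter, 1 thyroid hormone gene was at least 2-fold higher and 1 immune gene lower, each from 0. Leaving out spots flagged as non-uniform was already part of the processing and was not run apart. No paired analysis was possible because each genotype was 1 array. Causes of these changes were not tested. Dim probes, such as the dimmer Ppargc1a probe and those of Ucp1 and Prdm16, are limited by signal over background.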
